A study of Mus musculus with 8 samples.

Results

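The 92 genes described here are the potassium channel genes among the 50578 genes counted by RNA-seq in mouse embryonic fibroblasts (MEFs) and in MEFs treated with a small molecule. A gene was taken when its symbol consisted of Kcn, further lower-case letters and a number, so pore-forming subunits and their auxiliary subunits are both included. By family the 92 genes were 40 voltage-gated pore subunits, 8 calcium- or sodium-activated pore subunits, 15 inward rectifiers, 14 two-pore channels and 15 auxiliary subunits. These families follow the prefix of the symbol and not the function of each gene. The voltage-gated ones thus include subunits that form no channel alone, such as Kcns3, and Kcnu1 was placed by its name only.

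MEFs are connective tissue cells taken into culture from mouse embryos, here wild-type C57BL/6J cells at passages 3 to 5. One group was labelled control, and the others received 10 µM of CHIR-99021, LY-364947 or carbidopa, added 2 h after plating, with the medium renewed every 3 days. Each of the 4 groups had 2 libraries. CHIR-99021 blocks the kinase GSK3 and so activates Wnt signaling, LY-364947 blocks the type I TGF-β receptor, and carbidopa blocks the decarboxylase that makes dopamine from L-DOPA. The labels write LY-364747 for LY-364947. The sources used here do not give the length of treatment for RNA-seq, the vehicle or the culture time of the control cells. Nor do the labels say that the replicates were separate cultures, so the p-values measure the spread between these libraries, which may be technical. The study asked whether single molecules move MEFs toward hepatic progenitor-like cells, and the labels name the treated cells hepatic-like. The 8 hepatocyte markers examined, among them Hnf4a, Alb and Apob, summed to 0.323 to 0.967 CPM (counts per 1000000 reads counted, scaled as described below) in MEFs against 0.612 to 1.18 CPM in treated cells, and all 8 were too low to be tested. Members differed within this sum, as Alb had 2 and 0 reads in MEFs and 5 to 10 in treated libraries, Hnf4a 1 and 2 against 6 to 10, and Apob 10 and 2 against 0 to 6.

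Potassium channels let potassium leave the cell along its gradient and thereby hold the membrane potential negative. Voltage-gated channels open when the membrane depolarizes, calcium-activated channels open when intracellular calcium rises, inward rectifiers and two-pore channels carry current near the resting potential, and auxiliary subunits change the gating, number or location of the pores. Fibroblasts are not excitable, yet their potassium channels take part in setting membrane potential, volume and calcium entry. Kcnh1 encodes the ether-à-go-go (Eag) channel, a voltage-gated channel known from brain and from many tumors.

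Of the 92 genes, 79 had at least 1 read in some library, and 13 had none in any of the 8 libraries, for which a count of 0 allows up to 3 reads in each. The filter on low counts kept 35 genes for testing among 15154 genes in all. The other 57 comprised the 13 without reads, 39 with at most 1 to 9 reads in any library, and 5 with 10 reads or more in some library. Kcnh1, Kcnn2 and Kcna1 lay under the filter's level in both MEF libraries and passed it only through treated libraries. Kcnj8 lay under it in all treated libraries and passed only through MEFs. Kcnk2 and Kcnk13 reached it in both MEF libraries but in too few treated libraries to pass on those alone. Kcnab3 was under it in MEF replicate 1 and needed treated libraries to pass. Counts over the 35 genes are therefore a description of the genes that passed and not of the whole family.

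The 250 bases before a RefSeq start site are shown for 5 genes, so that the sequence in front of genes with opposite changes can be compared. Kcnh1, Kcnd3 and Kcnq5 were higher in all 3 treatments, and Kcnk2 and Kcnj15 were lower in all 3. RefSeq gave 4 starts for Kcnk2 and 2 for Kcnq5, and the start nearest the GENCODE gene start was used. For Kcnd3 that start lay 440 bases from the GENCODE gene start. Windows at the other starts were not examined. Positions are on GRCm38.p6, the assembly also called mm10, and each sequence reads 5′ to 3′ on the gene's own strand. Kcnh1 lies at chr1:192190527-192190776 on the plus strand, Kcnd3 at chr3:105451640-105451889 on the plus strand, Kcnq5 at chr1:21961943-21962192 on the minus strand, Kcnk2 at chr1:189402274-189402523 on the minus strand and Kcnj15 at chr16:95257308-95257557 on the plus strand. Capitals mark matches, on either strand, to 6 motifs. The letters TATAAA are the core promoter motif known as the TATA box. The letters CTTTGA are bound by TCF/LEF, the DNA-binding factors of the Wnt pathway. The palindrome GTCTAGAC is bound by the SMAD effectors of TGF-β. The letters GGGCGG are the GC box, which is bound by Sp factors. The letters AGGTCA are the unit from which sites of retinoid and related nuclear receptors are built, and a single unit is not counted here as a full site. The letters GCGTG are the core of the element bound by the aryl hydrocarbon receptor. No match of one motif overlapped a match of another in these 5 sequences.
Kcnh1: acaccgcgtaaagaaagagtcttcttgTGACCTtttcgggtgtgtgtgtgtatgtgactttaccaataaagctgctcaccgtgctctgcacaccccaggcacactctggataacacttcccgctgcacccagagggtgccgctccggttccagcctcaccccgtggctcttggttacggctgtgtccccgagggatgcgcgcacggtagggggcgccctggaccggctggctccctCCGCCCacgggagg
Kcnd3: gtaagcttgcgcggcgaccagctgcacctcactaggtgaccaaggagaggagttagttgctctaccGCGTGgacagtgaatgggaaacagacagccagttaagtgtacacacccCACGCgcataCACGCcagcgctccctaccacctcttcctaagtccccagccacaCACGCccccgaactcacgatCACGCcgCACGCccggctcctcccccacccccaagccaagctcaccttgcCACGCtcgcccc
Kcnq5: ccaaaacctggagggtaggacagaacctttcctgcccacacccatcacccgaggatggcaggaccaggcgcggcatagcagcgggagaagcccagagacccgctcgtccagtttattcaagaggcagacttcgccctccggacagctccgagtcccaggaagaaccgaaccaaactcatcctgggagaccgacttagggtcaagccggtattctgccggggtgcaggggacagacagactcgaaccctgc
Kcnk2: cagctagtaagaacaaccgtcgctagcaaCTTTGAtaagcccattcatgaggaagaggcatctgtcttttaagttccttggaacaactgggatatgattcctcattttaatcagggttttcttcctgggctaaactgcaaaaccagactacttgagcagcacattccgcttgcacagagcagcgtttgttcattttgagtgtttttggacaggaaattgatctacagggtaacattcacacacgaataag
Kcnj15: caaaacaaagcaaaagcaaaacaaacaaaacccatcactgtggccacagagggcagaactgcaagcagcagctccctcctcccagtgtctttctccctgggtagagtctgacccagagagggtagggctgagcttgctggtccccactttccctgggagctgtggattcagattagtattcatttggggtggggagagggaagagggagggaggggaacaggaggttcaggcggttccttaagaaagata

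The Kcnh1 sequence held 1 AGGTCA unit 223 bases and a GC box 14 bases before the start, on the reverse strand in both cases. Kcnd3 held 7 aryl hydrocarbon receptor cores, and Kcnk2 held 1 TCF/LEF site 221 bases before its start. No motif of the 6 was found in the windows of Kcnq5 and Kcnj15. Among 32851 RefSeq promoters of the same length, a GC box was present in 32.7%, the aryl hydrocarbon receptor core in 28.2%, the AGGTCA unit in 14%, the TCF/LEF site in 13.8%, the TATA box in 12.4% and the palindromic SMAD site in 0.167%. The windows of the 3 genes that rose had a GC content of 62%, 62.8% and 60.8%, and those of Kcnk2 and Kcnj15 had 42.4% and 53.2%. These matches are a description of letters in a window, and binding was not measured.

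Kcnh1 went from almost no reads in MEFs to the highest level per kilobase of exon of any potassium channel gene in each treated group. It had 2 reads in each MEF library. Carbidopa-treated cells had 2680 and 3380 reads, LY-364947-treated cells 2931 and 3183, and CHIR-99021-treated cells 1906 and 1939. In CPM, scaled by TMM (edgeR's correction for library composition), this was 0.149 and 0.129 in MEFs, 126 and 158 under carbidopa, 165 and 170 under LY-364947, and 110 and 113 under CHIR-99021. Each treated library was far above both MEF libraries, and the 6 treated libraries lay between 110 and 170 CPM. From 1.89% to 1.98% of the genes tested were at or below the Kcnh1 level in MEFs, and 86.5% to 92.4% in treated cells.

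The log2 fold change of Kcnh1 in edgeR's quasi-likelihood test was 9.93 ± 0.24 (SE) under carbidopa (adjusted p = 2.42e-09), 10.17 ± 0.24 under LY-364947 (adjusted p = 2.31e-09) and 9.58 ± 0.24 under CHIR-99021 (adjusted p = 4.9e-09). It was the second largest rise among 15154 genes in each comparison (rank 2). With so few reads in MEFs the fitted value depends on the prior count, so the ratio of pooled reads is given as well. It was 1027 under carbidopa (95% exact interval 401.1 to 3772), 1209 under LY-364947 (472 to 4439) and 804 under CHIR-99021 (314 to 2953), and these intervals cover counting error only. The treated groups share the MEF libraries, so the 3 comparisons are not independent.

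**Figure D1:**
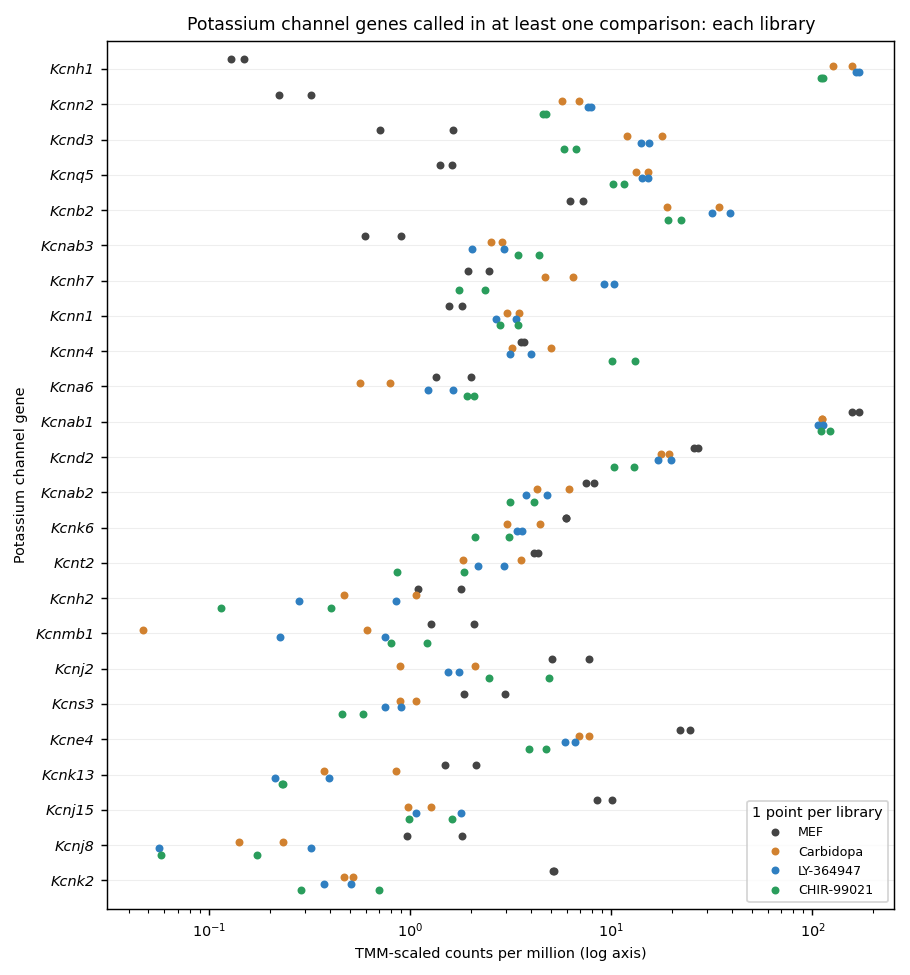
Each row is 1 of 24 of the 25 potassium channel genes called in at least 1 comparison, and each point is 1 library on a log axis of TMM-scaled CPM. Kcnh1 moves from 0.129 and 0.149 CPM in MEFs to 110 CPM or more in all 6 treated libraries, while genes such as Kcnk2 sit at 5.13 and 5.16 CPM in MEFs and below 1 CPM after treatment.

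Kcnh1 is annotated on chromosome 1 from 192190774 to 192510159 on the plus strand (GENCODE M21), with 7331 exonic bases. No exonic base was shared with another gene, and none of its transcripts shared an identical stretch of 75 bases with a transcript of another gene. Copies with mismatches, and copies outside the annotated transcripts, were not searched for. Hhat, an acyltransferase that modifies Hedgehog proteins, overlaps the end of the Kcnh1 span on the opposite strand without sharing exons. Hhat had 14.3 and 13.0 CPM in MEFs, 12.3 and 13.5 under carbidopa, 15.8 and 14.4 under LY-364947, and 16.5 and 20.3 under CHIR-99021. Its log2 fold change was -0.08, 0.15 and 0.44, with only the last one called (adjusted p = 0.0415). The neighbor on the other side, Rcor3, a corepressor subunit, had 32.7 and 33.0 CPM in MEFs and 78.0 to 109 CPM in treated cells. Rcor3 rose by a log2 fold change of 1.39 ± 0.13, 1.62 ± 0.13 and 1.41 ± 0.13 under carbidopa, LY-364947 and CHIR-99021 (adjusted p = 1.42e-05, 5.09e-06 and 1.35e-05). The antisense gene Gm10516 between Rcor3 and Kcnh1 was also called higher, by 1.40, 1.61 and 0.89, while Sertad4, on the far side of Hhat, was called lower by -1.82, -1.99 and -0.52. Genes around Kcnh1 thus did not all change in 1 direction. These neighbors lie within 500 kb of Kcnh1, and the ones named were chosen after their values were seen.

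Kcnh1 changed what the family's reads consisted of. It held 0.0408% and 0.0507% of all reads on the 92 genes in MEFs and 31.7% to 39.6% in treated cells. Kcnab1, an auxiliary β subunit of the Kv1 (Shaker) channels, held 53.6% and 53.7% in MEFs but 24.9% to 34.6% in treated cells. The 92 genes summed to 293 and 316 CPM in MEFs against 337 to 440 CPM in treated cells. Without Kcnh1 the sum was 293 and 316 CPM in MEFs and 227 to 276 CPM in treated cells, so the higher total of treated cells was the reads of Kcnh1. Per kilobase of exon, the highest gene in MEFs was Kcnab1 at 19.0 ± 1.0 CPM per kb (SD, n = 2), followed by Kcne4 at 8.74 ± 0.69 and Kcnd2 at 5.11 ± 0.18. In treated cells Kcnh1 came first, at 19.4 ± 3.0 CPM per kb under carbidopa, 22.8 ± 0.5 under LY-364947 and 15.2 ± 0.3 under CHIR-99021. Kcnab1 came second, at 13.0 ± 0.1, 12.8 ± 0.5 and 13.6 ± 1.0 CPM per kb. This order under CHIR-99021 depended on the division by exon length, since in reads Kcnab1 was above Kcnh1 there, with 1925 and 2117 reads against 1906 and 1939.

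**Figure D2:**
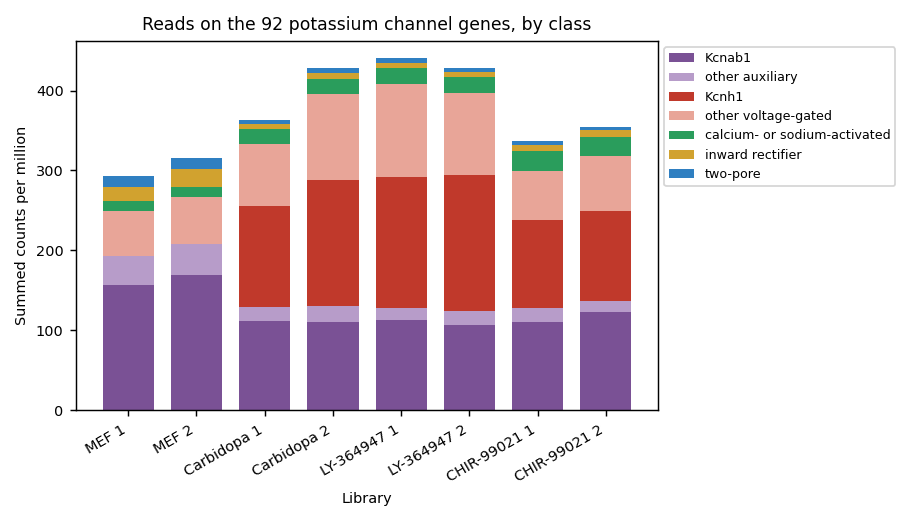
Stacked bars give the summed TMM-scaled CPM of the 92 genes in each library, with Kcnh1 and Kcnab1 drawn apart from the rest of their classes. Kcnh1 is too small to be seen in the 2 MEF libraries and takes 31.7% to 39.6% of the bar in the 6 treated libraries.

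Against MEFs, 8 of the 35 tested genes were higher and 12 lower under carbidopa (22.9% and 34.3%, with 18% and 19.7% of all genes tested called higher and lower). With LY-364947, 8 were higher and 11 lower (22.9% and 31.4%, beside 13.7% and 17.2% of all genes tested). With CHIR-99021, 8 were higher and 13 lower (22.9% and 37.1%, beside 18.7% and 20.1%). A gene was called at a Benjamini-Hochberg adjusted p under 0.05 over all genes tested. Over the 35 genes the log2 fold changes had a median of -0.55, -0.24 and -0.29, and that of all genes tested was 0.04, 0.03 and 0.04. In all, 25 of the 35 genes were called in at least 1 of the 6 comparisons between groups and 10 in none.

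**Figure D3:**
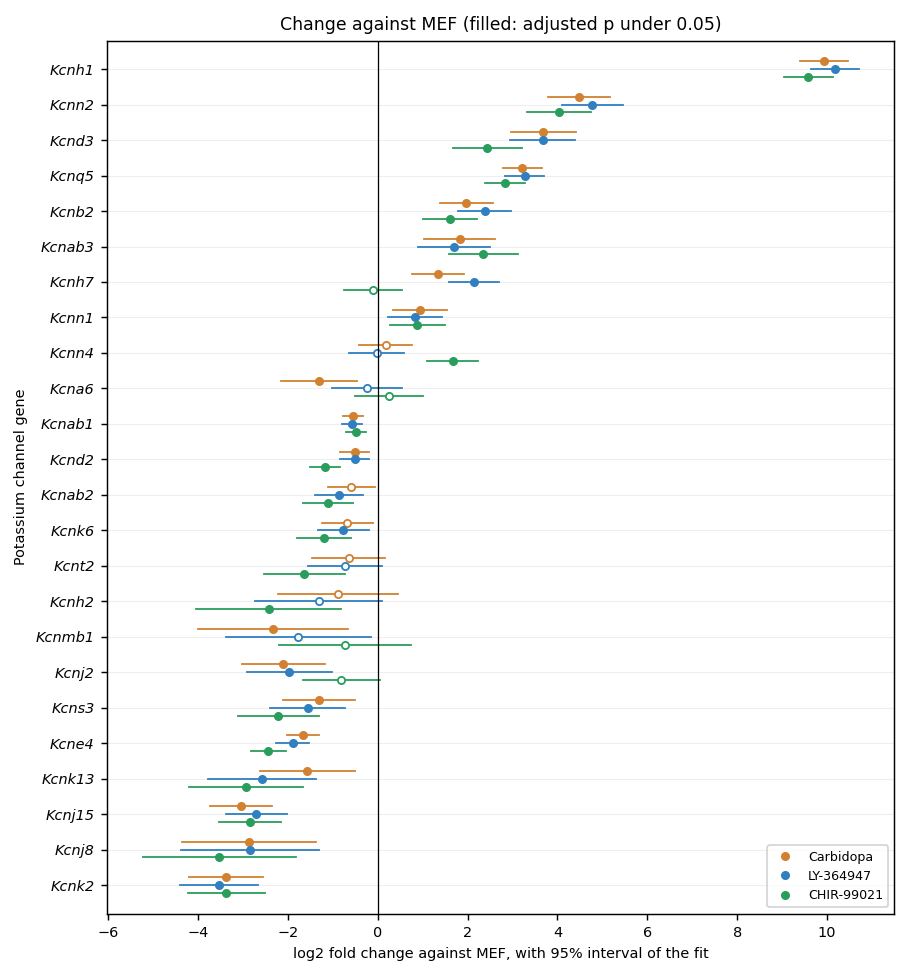
Points are the edgeR log2 fold changes against MEFs with 95% intervals for 24 of the 25 genes called in at least 1 comparison, filled where the adjusted p was under 0.05. Kcnh1 stands at 9.58 to 10.17 in the 3 treatments, and Kcnk2 at -3.37 to -3.53.

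Of 13 voltage-gated pore genes tested, 5 were higher and 4 lower under carbidopa, 5 and 2 under LY-364947, and 4 and 4 under CHIR-99021. These were 38.5% and 30.8%, 38.5% and 15.4%, and 30.8% and 30.8% of those tested. Of all genes tested 18% and 19.7%, 13.7% and 17.2%, and 18.7% and 20.1% were called. With 13 genes, and Kcnh1 passing the filter only through treated libraries, the counts are no result about the class. Beside Kcnh1, the rises were in Kcnd3, Kcnq5, Kcnb2 and Kcnh7. Kcnd3, an A-type channel that inactivates quickly, had 1.64 and 0.710 CPM in MEFs, 11.9 and 17.8 under carbidopa, 15.4 and 14.0 under LY-364947, and 5.82 and 6.67 under CHIR-99021. The treated libraries were all above MEFs, and those under CHIR-99021 were the lowest of the treated ones. Kcnd3 rose 12.9-fold under carbidopa (adjusted p = 1.13e-05), 12.7-fold under LY-364947 (adjusted p = 1.24e-05) and 5.42-fold under CHIR-99021 (adjusted p = 3.4e-04). Kcnq5, a subunit of the slow M-type current, had 1.41 and 1.61 CPM in MEFs, 13.3 and 15.2 under carbidopa, 14.1 and 15.3 under LY-364947, and 10.3 and 11.6 under CHIR-99021. Its replicates were close together in every group, and its rises of 9.33-fold, 9.65-fold and 7.17-fold were all called (adjusted p = 8.03e-07, 7.75e-07 and 2.17e-06).

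Kcnb2, a delayed rectifier, had 6.25 and 7.23 CPM in MEFs, 18.9 and 34.2 under carbidopa, 39.0 and 31.6 under LY-364947, and 19.2 and 22.3 under CHIR-99021. The carbidopa libraries lay further from each other than the lower of them lay from MEFs, and no treated library overlapped MEFs. Kcnb2 rose by a log2 fold change of 1.97 ± 0.27, 2.38 ± 0.27 and 1.62 ± 0.27 (adjusted p = 2.51e-04, 6.81e-05 and 9.86e-04). Kcnh7, an ERG-type channel related to Kcnh1, had 1.93 and 2.45 CPM in MEFs, 4.66 and 6.48 under carbidopa, 10.3 and 9.16 under LY-364947, and 2.36 and 1.74 under CHIR-99021. It was higher under carbidopa and LY-364947 (log2 fold change 1.34 ± 0.26 and 2.14 ± 0.25, adjusted p = 0.00267 and 1.01e-04), and CHIR-99021 libraries overlapped MEFs (-0.10 ± 0.29, adjusted p = 0.811). In the annotation 4.57% of Kcnh7 exonic bases overlap the gene Gca, and the strand setting of the counting is not given, so a small share of its reads cannot be assigned with certainty.

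Among the voltage-gated genes that were lower, Kcnd2, the A-type channel most abundant in MEFs, had 27.0 and 25.7 CPM in MEFs, 17.6 and 19.4 under carbidopa, 19.9 and 17.0 under LY-364947, and 10.3 and 12.9 under CHIR-99021. No treated library reached the MEF level. It fell 1.42-fold under carbidopa (adjusted p = 0.0193), 1.43-fold under LY-364947 (adjusted p = 0.0219) and 2.26-fold under CHIR-99021 (adjusted p = 1.61e-04), and the first 2 calls did not hold when either MEF library was left out (adjusted p = 0.0771 to 0.123). Kcnd2 and Kcnd3 encode channels of the same A-type subfamily, and in all 3 treatments Kcnd2 was lower and Kcnd3 higher.

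Kcns3, a subunit that forms no channel alone and modifies the delayed rectifiers, had 1.86 and 2.97 CPM in MEFs and 0.461 to 1.07 CPM in the 6 treated libraries. It fell by a log2 fold change of -1.30 ± 0.36, -1.56 ± 0.38 and -2.21 ± 0.41 (adjusted p = 0.018, 0.00999 and 0.00183), and the first 2 calls were lost in DESeq2. Kcnh2, the ERG channel known from cardiac repolarization, had 24 and 17 reads in MEFs and 2 and 7 under CHIR-99021. It was called lower there (-2.43 ± 0.73, adjusted p = 0.0232), but not when CHIR-99021 replicate 1 was left out (adjusted p = 0.176). Kcna6, a Shaker-type channel, had 1.34 and 2.00 CPM in MEFs and 0.565 and 0.793 CPM under carbidopa. Its fall under carbidopa (-1.30 ± 0.38, adjusted p = 0.0222) was not called in DESeq2 (adjusted p = 0.0873), and 39.6% of its exonic bases overlap the antisense gene Gm26673.

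Among the 8 calcium- or sodium-activated genes, 6 were tested. Of these 2 were higher and 0 lower under carbidopa and under LY-364947, and 3 higher and 1 lower under CHIR-99021. Of all genes tested 18% and 19.7%, 13.7% and 17.2%, and 18.7% and 20.1% were called in the 3 treatments. With 6 genes, and Kcnn2 passing the filter only through treated libraries, the counts are no result about the class. Kcnn2, a small-conductance calcium-activated channel, had 3 and 5 reads in MEFs, 147 and 122 under carbidopa, 141 and 143 under LY-364947, and 79 and 82 under CHIR-99021. Treated libraries were clearly separate from MEFs, at 4.55 to 7.91 CPM against 0.223 and 0.323 CPM. The log2 fold change was 4.48 ± 0.31, 4.78 ± 0.30 and 4.04 ± 0.32 (adjusted p = 1.95e-06, 1.17e-06 and 5.53e-06), and the ratio of pooled reads was 22.8 (exact interval 11.4 to 53.4), 28.1 (14.1 to 65.7) and 16.8 (8.34 to 39.7). Of its exonic bases 8.13% overlap other genes. Kcnn1, of the same subfamily, had 1.56 and 1.81 CPM in MEFs and 2.66 to 3.48 CPM in treated cells. Its rises of 1.92-fold, 1.78-fold and 1.84-fold (adjusted p = 0.0197, 0.042 and 0.0274) were not called in DESeq2.

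Kcnn4, the intermediate-conductance channel found in many non-excitable cells, differed from Kcnn2 and Kcnn1 by being called higher under CHIR-99021 alone. It had 3.57 and 3.68 CPM in MEFs, 4.99 and 3.22 under carbidopa, 3.14 and 3.99 under LY-364947, and 13.1 and 10.0 under CHIR-99021. Only the CHIR-99021 libraries were clear of MEFs, with a 3.18-fold rise (adjusted p = 5.11e-04), while the log2 fold change was 0.18 ± 0.27 under carbidopa and -0.02 ± 0.27 under LY-364947. Kcnt2, a sodium-activated channel, had 4.31 and 4.13 CPM in MEFs and 0.864 and 1.86 under CHIR-99021 (log2 fold change -1.63 ± 0.41, adjusted p = 0.00976). With CHIR-99021 replicate 1 left out, Kcnt2 was no longer called.

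None of the 5 inward rectifiers tested was higher in any treatment, and 3, 3 and 2 were lower under carbidopa, LY-364947 and CHIR-99021. Of all genes tested 18%, 13.7% and 18.7% were higher and 19.7%, 17.2% and 20.1% lower. With 5 genes, and Kcnj8 passing the filter only through MEFs, neither the falls nor the absence of a rise is a result about the class. Kcnj15, a weak inward rectifier of epithelia, had 8.48 and 10.1 CPM in MEFs, 1.27 and 0.980 under carbidopa, 1.80 and 1.07 under LY-364947, and 1.61 and 0.987 under CHIR-99021. All treated libraries were far below MEFs and close to each other. It fell 8.24-fold, 6.51-fold and 7.13-fold (adjusted p = 3.33e-05, 7.51e-05 and 5.68e-05). Kcnj15 shares identical stretches with transcripts of many other genes and 5.27% of its exonic bases with overlapping genes, so some of its reads are uncertain.

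Kcnj8, the pore of an ATP-sensitive channel, had 13 and 28 reads in MEFs, 3 and 5 under carbidopa, 1 and 6 under LY-364947, and 1 and 3 under CHIR-99021. All treated libraries were below MEFs, at read numbers where counting error is large. It fell by a log2 fold change of -2.86 ± 0.67, -2.83 ± 0.69 and -3.52 ± 0.76 (adjusted p = 0.00785, 0.0102 and 0.0046), and none of the 3 calls held without MEF replicate 2 (adjusted p = 0.0632 to 0.132). Abcc9, the sulfonylurea receptor subunit that assembles with Kcnj8, had 55 and 95 reads in MEFs and 1 to 12 reads in treated libraries. Abcc9 was lower in each treatment too, by -5.12 ± 0.58, -5.46 ± 0.62 and -3.54 ± 0.50 (adjusted p = 7e-05, 7.6e-05 and 3.3e-04). Kcnj2, the strong inward rectifier that stabilizes the resting potential, had 5.06 and 7.74 CPM in MEFs, 0.894 and 2.10 under carbidopa, 1.74 and 1.54 under LY-364947, and 2.48 and 4.88 under CHIR-99021. It fell under carbidopa and LY-364947 (-2.10 ± 0.42 and -1.97 ± 0.42, adjusted p = 0.00322 and 0.00522) and was not called under CHIR-99021 (-0.81 ± 0.39, adjusted p = 0.126).

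Of the 14 two-pore channels 4 were tested, with 0 higher in each treatment and 2, 3 and 3 lower under carbidopa, LY-364947 and CHIR-99021. Of all genes tested 18%, 13.7% and 18.7% were higher and 19.7%, 17.2% and 20.1% lower. With 4 genes, and with Kcnk2 and Kcnk13 dependent on MEFs to pass the filter, these counts are no result about the class. Kcnk2, a channel opened by membrane stretch and lipids, had 5.13 and 5.16 CPM in MEFs, 0.518 and 0.467 under carbidopa, 0.505 and 0.373 under LY-364947, and 0.288 and 0.696 under CHIR-99021. This was the largest fall among the 35 tested genes in the carbidopa and LY-364947 comparisons and second to Kcnj8 in the CHIR-99021 comparison. The fall was 10.3-fold, 11.6-fold and 10.3-fold (adjusted p = 5.98e-05, 6e-05 and 7.34e-05), and 12.2% of Kcnk2 exonic bases overlap the antisense gene A430027H14Rik. Kcnk13, a channel known from microglia, had 20 and 33 reads in MEFs and 4 to 18 in treated libraries. It fell by -1.56 ± 0.47, -2.57 ± 0.54 and -2.94 ± 0.57 (adjusted p = 0.0254, 0.00453 and 0.00247), the first of which was lost in DESeq2 (adjusted p = 0.123). Kcnk6 had 5.95 and 5.94 CPM in MEFs and 2.09 to 4.43 CPM in treated cells, and it was called lower under LY-364947 and CHIR-99021 (adjusted p = 0.0459 and 0.00551) but not under carbidopa (-0.67 ± 0.25, adjusted p = 0.0583). The LY-364947 call was lost in DESeq2 (adjusted p = 0.123).

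Among 7 auxiliary genes tested, 1 was higher and 3 were lower in each treatment (14.3% and 42.9%). Of all genes tested 18% and 19.7%, 13.7% and 17.2%, and 18.7% and 20.1% were called higher and lower. With 7 genes the counts are no result about the class. Kcnab3, a β subunit of Shaker-type channels, had 0.595 and 0.903 CPM in MEFs, 2.87 and 2.52 under carbidopa, 2.02 and 2.93 under LY-364947, and 4.38 and 3.42 under CHIR-99021. It rose 3.54-fold, 3.25-fold and 5.11-fold (adjusted p = 0.00255, 0.00457 and 4.09e-04). The other β subunits were lower wherever they were called. Kcnab1 had 157 and 170 CPM in MEFs, 112 and 111 under carbidopa, 113 and 107 under LY-364947, and 111 and 123 under CHIR-99021, and no treated library reached MEFs. It was the most abundant of the falling genes. Its fall was 1.47-fold, 1.49-fold and 1.40-fold (adjusted p = 0.00164, 0.00139 and 0.00345), and the CHIR-99021 call was lost without MEF replicate 2 or CHIR-99021 replicate 1 (adjusted p = 0.052 and 0.0542). Kcnab2 had 8.18 and 7.49 CPM in MEFs and 3.13 to 6.16 CPM in treated cells. It was called lower under LY-364947 and CHIR-99021 (-0.87 ± 0.24 and -1.10 ± 0.25, adjusted p = 0.0196 and 0.00541) and not under carbidopa (-0.58 ± 0.23, adjusted p = 0.0742).

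Kcne4, a single-span subunit that inhibits several voltage-gated channels, had 21.9 and 24.5 CPM in MEFs, 7.72 and 6.90 under carbidopa, 5.89 and 6.60 under LY-364947, and 4.72 and 3.89 under CHIR-99021. The groups were well separated from MEFs. Kcne4 fell 3.18-fold, 3.71-fold and 5.39-fold (adjusted p = 2.08e-05, 1.03e-05 and 2.17e-06). Kcnmb1, the β subunit of the large-conductance calcium-activated channel in smooth muscle, had 17 and 32 reads in MEFs and 1 and 13 under carbidopa. Its call under carbidopa (-2.33 ± 0.75, adjusted p = 0.0334) was lost without Carbidopa replicate 1 (adjusted p = 0.108), and Kcnma1, the pore that it joins, was not called in any comparison.

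In total, 60 calls against MEFs were made over the 3 comparisons, and 38 of them held under every alternative that tested the gene. Kcnh1, Kcnn2, Kcnd3, Kcnq5, Kcnb2 and Kcnab3 among the rises and Kcnk2, Kcnj15 and Kcne4 among the falls were the 9 genes called in all 3 comparisons under every such alternative. MEF replicate 2 decided the most calls. Without it, Kcna6, Kcnd2, Kcnj8, Kcnk13, Kcnmb1, Kcnn1 and Kcns3 were among those lost under carbidopa, where 12 of the 20 calls remained and Kcnf1, not among the 35 tested genes, was gained, and Kcnab2, Kcnd2, Kcnj2, Kcnj8, Kcnk13, Kcnk6, Kcnn1 and Kcns3 under LY-364947, which left 11. Leaving out a library leaves 1 in its group, which is then assumed to vary like the others.

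The 10 tested genes without a call covered several families and were mostly low. Kcnd1, an A-type channel, was the highest of them, at 5.35 to 8.41 CPM over the 8 libraries, followed by Kcnj4 at 1.85 to 2.99 CPM, and Kcnn3 was at 0.892 to 2.32 CPM. Kcna1, Kcnip3, Kcnip4, Kcnj10, Kcnk5 and Kcnma1 stayed between 0 and 1.68 CPM. Kcnip3 and Kcnip4 bind the A-type channels, Kcnj10 is known from glia, and Kcnk5 is a two-pore channel sensitive to pH. Of the 5 genes with 10 reads or more that were not tested, Kcnj3, a G protein-gated inward rectifier, had 1 read in each MEF library, 9 and 22 under carbidopa, 7 and 10 under LY-364947, and 4 and 0 under CHIR-99021. Kcnmb4, another β subunit of the large-conductance channel, had 14 and 9 reads in MEFs and 0 to 9 in treated libraries. Kcna4, Kcnq3 and Kcnu1 had between 2 and 13 reads in every library. The ratio of pooled reads under carbidopa against MEFs was 10.5 for Kcnj3 (exact interval 2.67 to 90.7) and 0.0590 for Kcnmb4 (0.00674 to 0.239). Antisense genes overlap 31.1% of Kcnj3 and 31.5% of Kcnmb4 exonic bases, so some reads of these 2 genes cannot be assigned with certainty. Under carbidopa both were called with no filter on low counts, Kcnj3 higher and Kcnmb4 lower, and Kcnmb4 was also called in DESeq2.

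Between compounds the potassium channel genes differed less. CHIR-99021 against carbidopa gave 2 genes higher and 4 lower (5.71% and 11.4% of the 35, beside 6.62% and 8.08% of all genes tested). CHIR-99021 against LY-364947 gave 1 higher and 5 lower (2.86% and 14.3%, beside 6.45% and 7.69%). LY-364947 against carbidopa gave 0 in either direction in edgeR and in DESeq2, with 2 genes at an unadjusted p under 0.05 in edgeR, and among all genes tested 0.0132% were called higher and 0% lower. The compounds have unrelated structures, were used at the same concentration, and the comparisons between compounds share libraries as well.

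**Figure D4:**
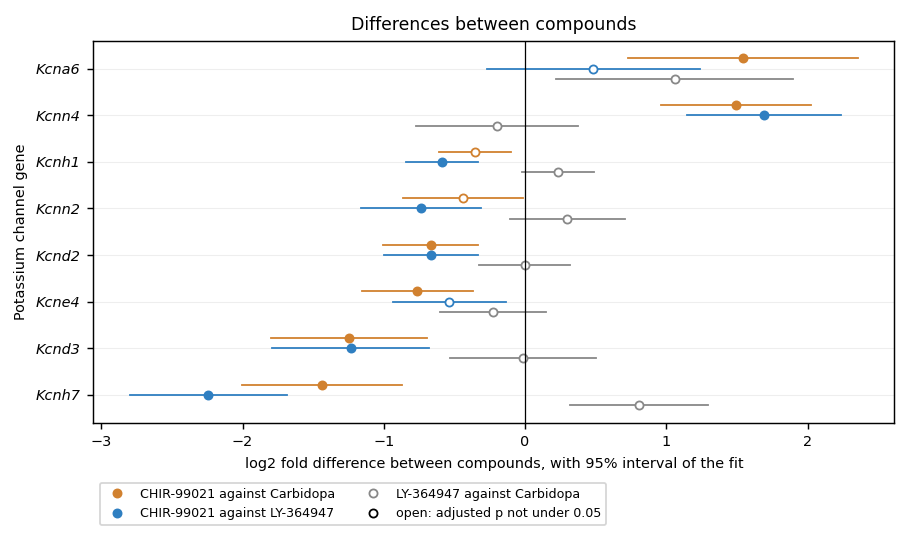
Points are the edgeR log2 fold differences between compounds with 95% intervals for the 8 potassium channel genes called in such a comparison, filled where the adjusted p was under 0.05. Kcnn4 is higher under CHIR-99021 than with either other compound, by 1.49 and 1.69, and Kcnd3 and Kcnh7 are lower, by -1.23 to -2.24.

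Kcnh7 showed the largest of these differences, -2.24 ± 0.25 for CHIR-99021 against LY-364947 (95% interval -2.80 to -1.69, adjusted p = 3.34e-04) and -1.44 ± 0.26 against carbidopa (adjusted p = 0.00461). Kcnd3 was lower under CHIR-99021 by -1.25 ± 0.25 against carbidopa (adjusted p = 0.00839) and by -1.23 ± 0.25 against LY-364947 (adjusted p = 0.00955). Kcnd2 was lower by -0.67 ± 0.15 in both (adjusted p = 0.0149 and 0.0161). Both A-type genes therefore had their lowest treated level under CHIR-99021, although Kcnd3 was above MEFs and Kcnd2 below. Kcnn4 was higher under CHIR-99021 by 1.49 ± 0.24 and 1.69 ± 0.25 (adjusted p = 0.00268 and 0.00156). Kcne4 was lower under CHIR-99021 than with carbidopa (-0.76 ± 0.18, adjusted p = 0.0172), and Kcna6 was higher (1.54 ± 0.37, adjusted p = 0.0192). The calls of Kcnh7 and Kcnn4 held with any 1 library left out. Those of Kcnd2 and Kcnd3 against both compounds were lost without CHIR-99021 replicate 1, which left 2 genes called in each comparison, those against LY-364947 were lost without LY-364947 replicate 1, and those of Kcne4 and Kcna6 against carbidopa were lost without either CHIR-99021 library.

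Kcnh1 itself was lower under CHIR-99021 than with LY-364947 by -0.59 ± 0.12 (95% interval -0.84 to -0.33, adjusted p = 0.00805), and Kcnn2 by -0.74 ± 0.19 (adjusted p = 0.0283). Leaving out any single library of these 2 groups ended both calls. Against carbidopa the difference of Kcnh1 was -0.35 ± 0.11 (95% interval -0.61 to -0.10, adjusted p = 0.068), and between LY-364947 and carbidopa it was 0.23 ± 0.11 (95% interval -0.02 to 0.49, adjusted p = 0.519). All these differences were small beside the change from MEFs.

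Genes that work with potassium channels changed in both directions. Of 11 partner genes 3 were tested, and 1 was higher, 1 lower and 1 not called in each treatment. That is 33.3% in either direction, beside 13.7% to 20.1% of all genes tested, and with 3 genes it is no result about the list. Dpp6, a subunit of A-type channels, had 10 and 13 reads in MEFs and 61 to 76 in treated libraries. Dpp6 rose by a log2 fold change of 2.01 ± 0.29, 2.19 ± 0.28 and 2.29 ± 0.28 (adjusted p = 3.6e-04, 1.93e-04 and 1.31e-04). Amigo1, a partner of the delayed rectifiers, had 8.24 to 12.0 CPM over the 8 libraries and was not called.

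Potassium transporters and exchangers also changed in both directions. Of 17 tested among 24, 2 were higher and 5 lower under carbidopa, 3 and 5 under LY-364947, and 4 and 6 under CHIR-99021. These were 11.8% and 29.4%, 17.6% and 29.4%, and 23.5% and 35.3% of those tested, beside 18% and 19.7%, 13.7% and 17.2%, and 18.7% and 20.1% of all genes. The list summed to 1068 and 1091 CPM in MEFs against 1071 to 1114 CPM in treated cells. Slc24a3, a potassium-dependent sodium-calcium exchanger, had 7.44 and 5.29 CPM in MEFs, 28.3 and 31.1 under carbidopa, 32.4 and 32.2 under LY-364947, and 17.5 and 18.5 under CHIR-99021. It rose by 2.23 ± 0.16, 2.35 ± 0.16 and 1.51 ± 0.16. Slc24a4, of the same family, had 0 reads in both MEF libraries, 33 and 34 under carbidopa, 38 and 36 under LY-364947, and 3 and 2 under CHIR-99021. Slc12a2, the sodium-potassium-chloride cotransporter, had 133 and 147 CPM in MEFs and 55.0 to 105 CPM in treated cells, a change of -0.54 ± 0.13, -0.50 ± 0.13 and -1.19 ± 0.13 that was called in each treatment.

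Other voltage-gated cation channels gave 7 higher and 6 lower of 25 tested under carbidopa, 7 and 5 under LY-364947, and 4 and 6 under CHIR-99021. Their shares were 28% and 24%, 28% and 20%, and 16% and 24%. Beside these, 18% and 19.7%, 13.7% and 17.2%, and 18.7% and 20.1% of all genes tested were called. With 25 genes the counts are no result about the list. The 3 with the smallest p in any treatment were calcium channel subunits that were lower. Cacna1c, the pore of the L-type channel, had 46.8 and 45.6 CPM in MEFs, 1.55 and 3.17 under carbidopa, 3.14 and 4.10 under LY-364947, and 8.18 and 8.42 under CHIR-99021. It fell by -4.28 ± 0.25, -3.67 ± 0.24 and -2.48 ± 0.22 (adjusted p = 5.7e-07, 1.38e-06 and 1.2e-05). Cacna1g, a T-type pore, fell from 54.1 and 58.0 CPM to between 11.9 and 34.3 CPM. Cacna2d1, an auxiliary subunit of calcium channels, fell from 143 and 148 CPM to between 40.8 and 52.5 CPM. Others rose, among them Cacnb2, a β subunit of calcium channels, by 1.30 ± 0.15, 1.44 ± 0.16 and 1.72 ± 0.15, and Scn1a, a sodium channel pore, by 3.37 ± 0.35, 3.57 ± 0.34 and 2.99 ± 0.36, both called in each treatment and named after their values were seen.

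Markers of other cell types moved with the treatments as well, and all sums here are over whole marker lists in CPM. Counts of called markers are to be read beside the shares of all genes tested. These were 18% higher and 19.7% lower under carbidopa, 13.7% and 17.2% under LY-364947, and 18.7% and 20.1% under CHIR-99021. In the lists with 3 or 5 genes tested, the counts are no result about a cell type. Fibroblast markers, led by Fn1, Col1a1 and Col1a2, summed to 34770 and 35110 in MEFs against 8130 to 11720 in treated cells, with 8 of 10 lower and 1 higher in each treatment. Smooth muscle markers, led by Acta2, Tagln and Smtn, summed to 2963 and 3225 in MEFs against 358 to 842 in treated cells, with 8, 8 and 7 of 9 tested lower and 1, Lmod1 (named after its value was seen), higher under CHIR-99021. Macrophage markers, led by Cd68, Ctss and Mrc1, summed to 500 and 517 in MEFs, 171 and 173 under carbidopa, 129 and 131 under LY-364947, and 43.5 and 44.7 under CHIR-99021, with 12, 12 and 13 of 13 tested lower. Neuron markers, led by Map2, Stmn2 and Tubb3, summed to 88.6 and 92.4 in MEFs against 11.2 to 13.6 in treated cells, with 0 of 5 higher and 3 lower. Epithelial markers, led by Krt19, Krt18 and Cldn4, summed to 3.23 and 4.24 in MEFs against 9.82 to 23.0 in treated cells, with 3, 1 and 3 of 5 tested higher. Krt19 was called higher in each treatment, and Krt18 and Cldn4 under CHIR-99021 only. The other calls under carbidopa were Krt5 and Krt14, named after their values were seen. Krt5 had 16 and 30 reads there and Krt14 had 18 and 78, and both had 0 reads under LY-364947. Endothelial markers, led by Kdr, Emcn and Tek, summed to 17.3 and 19.8 in MEFs against 11.5 to 15.8 in treated cells, with 1, 1 and 2 of 3 tested lower. Schwann cell and glia markers, among them Erbb3 and Sox10, lay between 2.30 and 6.97, with 2 of 3 tested lower under CHIR-99021, and skeletal muscle markers, led by Tnnt3, Ckm and Myh3, between 0.129 and 0.518. In bulk samples fewer cells of a type and less RNA per cell cannot be told apart, and the part of such shifts in the changes of Kcnh1 and the other potassium channel genes was not tested.

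The libraries held 15039566 to 20504338 counted reads each. By total counts, without TMM scaling, 10 reads in a library of median size corresponded to 0.572 CPM, the level used by the filter. All other CPM values are TMM-scaled, so a gene under this level can have a larger TMM-scaled CPM in MEFs. Replicates of a group differed by more than sampling noise, with a chi-square per degree of freedom of 4.31 in MEFs, 7.25 under LY-364947, 9.21 under CHIR-99021 and 34.6 under carbidopa, so the carbidopa pair was the least alike. The 10 most abundant genes took 10.1% and 10.5% of reads in MEFs and 6.34% to 8.55% in treated cells. The coefficient of biological variation over all genes was 11%.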

How the data were processed

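RNA-seq libraries of control MEFs and of MEFs given 10 µM CHIR-99021, LY-364947 or carbidopa were compared, 2 libraries in each group. The authors deposited raw counts of reads per gene, whole numbers without normalization, made by mapping with STAR 2.4.2a to mm10 and counting with featureCounts. The annotation release and the strand setting are not given in the sources used here. The labels name a SMARTER kit for the libraries, and the methods name NEBNext Ultra. Groups and replicate numbers were taken from the sample labels.

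Counts were analysed in R 4.3.3 with edgeR 4.0.16 (TMM, filterByExpr, quasi-likelihood test, a single fit of all 8 libraries with no term other than group, Benjamini-Hochberg adjustment over 15154 genes, threshold 0.05). The method was tested on simulated data. Of 50578 gene identifiers, 50354 were found in GENCODE M21, and all 92 potassium channel genes were. That annotation gave positions and exonic lengths, and promoters were from RefSeq on GRCm38.p6. The interval of a read ratio is the 95% exact binomial interval. Such intervals, and the limits that a count of 0 allows, describe counting error alone. The precision at low levels is set by the depth of 15039566 to 20504338 reads, where 3 reads correspond to 0.14 to 0.223 TMM-scaled CPM.

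The potassium channel genes and the other gene lists were chosen with earlier results of these data known. Named are all genes called in at least 1 comparison, Kcnh1, all other tested genes, genes with 10 reads or more that were not tested, up to 3 genes with the smallest p in each related list and up to 3 with the highest level in each marker list, except a few genes that are not reported here and are part of the counts and sums only. Alternatives were DESeq2 1.42.0, RLE size factors, a fit of only the groups compared, no filter, a minimum of 10 counts in each library, a replicate block, and fits that each lack 1 library. The labels' processing notes also name DESeq2 and bcl2fastq.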

Additional observations from a re-analysis of the deposited data

How the results depend on the processing

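The number of potassium channel genes called was within 1.5 times of the value reported under DESeq2, RLE size factors, the compared groups alone and the replicate block. With no filter on low counts, 10 genes were called for CHIR-99021 against carbidopa and 1, Kcnh7, for LY-364947 against carbidopa. Requiring at least 10 counts in every library left 12, 12 and 13 genes called under carbidopa, LY-364947 and CHIR-99021 against MEFs, since this filter removes Kcnh1, Kcnn2 and other genes that are low in 1 group. Leaving out each library in turn gave 13 to 23 genes for carbidopa, 11 to 21 for LY-364947 and 16 to 24 for CHIR-99021 against MEFs, 2 to 9 for CHIR-99021 against carbidopa, 2 to 10 for CHIR-99021 against LY-364947 and 0 to 3 for LY-364947 against carbidopa. The lowest values came without MEF replicate 2 (13 and 11) and, between compounds, without CHIR-99021 replicate 1 (2 and 2) or LY-364947 replicate 1 (2). The 10 came without either carbidopa library, and the 3 (Kcnb2, Kcnh1 and Kcnh7) without Carbidopa replicate 2. The cause was not tested.

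Signs turned only for log2 fold changes that were not called. With 1 library left out, Kcna6 ranged from -0.49 to 0.0858 under LY-364947 and from -0.0028 to 0.57 under CHIR-99021, Kcnh7 from -0.33 to 0.10 under CHIR-99021 (0.08 without MEF replicate 2), and Kcnn4 from -0.17 to 0.46 under carbidopa and from -0.21 to 0.14 under LY-364947. Over the 13 alternatives that tested it, Kcnh1 ranged from 9.76 to 10.08 (carbidopa), 10.07 to 10.26 (LY-364947) and 9.47 to 9.68 (CHIR-99021).

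Samples with the same replicate number did not deviate together (correlations of -0.161 to 0.128), so the numbers do not pair them. With a replicate block, 19, 18, 21, 7, 7 and 0 genes were called in the 6 comparisons, beside 20, 19, 21, 6, 6 and 0 without it.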
